A study of Canis lupus familiaris with 186 samples.

Results

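Osteosarcomas were compared by how much RNA of fat cell genes they held. The 186 primary tumors came from as many pet dogs with appendicular osteosarcoma, 93 from the trial COTC021 and 93 from COTC022, and each gave 1 mRNA library from a biopsy taken before any treatment. All dogs then had the limb amputated and received carboplatin, with or without rapamycin by random assignment, so treatment could not have reached these libraries. Each tumor was scored by FABP4 and PLIN1, as the mean of the z-scores of log2(CPM + 1), where CPM is counts per 1000000 counts of a library's total. The groups were thus chosen by the measured levels of FABP4 and PLIN1: the 47 tumors in the top 25% of the score were called fat-rich, the 47 in the bottom 25% fat-poor, and the other 92 middle. These names describe the score and no histology, and each tumor is 1 sample of 1 dog.

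PLIN1 encodes perilipin-1, which coats the lipid droplet of mature fat cells and controls the access of lipases to it. FABP4 encodes a carrier that binds fatty acids in the cytoplasm of fat cells, but capillary endothelium and macrophages also make it. Fat cells are a normal part of the marrow that osteosarcoma invades, and fat also lies with muscle in the soft tissue around bone. In bulk RNA, fewer cells of a type and less RNA per cell cannot be told apart.

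FABP4 lies at chr29:29223638-29228357 and PLIN1 at chr3:53145820-53159427 of the UU_Cfam_GSD_1.0 assembly. FABP4 ranged from 3.19 to 1100 CPM in fat-rich tumors, with a median of 43.3, and from 0 to 2.99 in fat-poor tumors, with a median of 0.325. PLIN1 ranged from 0 to 120 CPM in fat-rich tumors, with a median of 1.94, and from 0 to 0.756 in fat-poor tumors, with a median of 0.246. These values chose the groups and carry no test. FABP4 did not overlap between the groups, whereas 40 of 47 fat-rich tumors exceeded every fat-poor tumor in PLIN1 and 2 fat-rich tumors had no PLIN1 count at all. PLIN1 rested on few reads: 0 to 16 counts in fat-poor tumors and a median of 25 counts in fat-rich tumors. A total of 3 counts, the limit that a count of 0 allows, amounted to 0.109 to 0.391 CPM in the fat-poor libraries (counting error only). The lowest fat-rich tumor scored 0.298, with 25.9 CPM of FABP4 and 0.609 of PLIN1, and the tumor just below it scored 0.293, with 40.0 and 0.322 CPM. At the other end, the highest fat-poor tumor scored -0.584, with 0.236 CPM of FABP4 and 0.756 of PLIN1, and the next tumor scored -0.581, with 1.08 and 0.394 CPM.

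**Figure D1:**
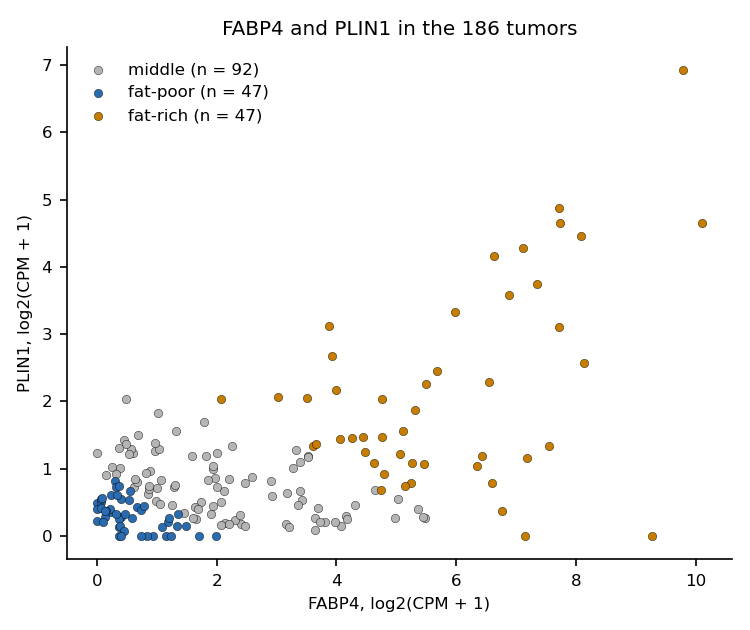
FABP4 (x axis) against PLIN1 (y axis), each as log2(CPM + 1), in all 186 tumors; each point is 1 tumor. Fat-poor tumors (blue) sit near the origin, and fat-rich tumors (orange) spread to 1100 CPM of FABP4 and 120 CPM of PLIN1, with 2 of them at 0 PLIN1.

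The genes of the rule did not sort the tumors in the same way. Of the 47 tumors in the top 25% for FABP4, 23 were also in the top 25% for PLIN1, 17 were in its middle and 7 in its bottom 25%. Of the 47 in the bottom 25% for FABP4, 11 were in the bottom and 6 in the top 25% for PLIN1. The combined score followed FABP4 more closely: 38 of the 47 fat-rich tumors were in the top 25% for FABP4 and 32 in the top 25% for PLIN1.

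The groups were even in trial and uneven in the GS-1 clusters. GS-1 is a published gene signature, several of whose genes are immune genes, and K-means on the 27 of them used here split the 186 tumors into 62 GS-1-high and 124 GS-1-low. Of the fat-rich tumors 28 of 47 (59.6%) were GS-1-high, against 4 of 47 fat-poor tumors (8.51%) and 30 of 92 middle tumors (32.6%). The odds ratio was 15.3, with a 95% confidence interval of 4.51 to 68.5 (Fisher's exact test, two-sided p = 2.01e-07). With clusters made from TMM-normalized values instead, 34 fat-rich and 10 fat-poor tumors were GS-1-high and the odds ratio was 9.4, with a 95% confidence interval of 3.43 to 28.0 (Fisher's exact test, two-sided p = 1.2e-06). The unevenness was found with FABP4 alone, where 30 of the top 47, 27 of the middle 92 and 5 of the bottom 47 tumors were GS-1-high. With PLIN1 alone the counts were 21 of the top 47 (44.7%), 24 of the middle 92 (26.1%) and 17 of the bottom 47 (36.2%). The share did not fall steadily with PLIN1, and neither split by 1 gene was tested. COTC021 supplied 23 of the fat-rich and 24 of the fat-poor tumors (odds ratio 0.919, 95% confidence interval 0.379 to 2.23, Fisher's exact test, two-sided p = 1.0). Library totals were 7193810 to 23214356 counts in fat-rich tumors (median 10935782) and 7680243 to 27420867 in fat-poor tumors (median 12212501), a difference in mean log2 total of -0.16 (two-sided permutation test, p = 0.128). With the 62 highest-scoring tumors against the 62 lowest, the difference in depth was -0.19 and passed the threshold (permutation test, p = 0.0402). The 50 of 186 libraries whose names hold __ where the others hold _ were deeper, with totals from 15803912 to 23214356, and made up 13 of the fat-rich and 15 of the fat-poor tumors. The main fit carried trial and GS-1 cluster as covariates. Every fold change below is from that fit, as fat-rich over fat-poor, unless stated otherwise.

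Whether the label fits was asked of fat cell genes that the rule did not use. The hormone adiponectin, encoded by ADIPOQ (chr34:19582218-19584037), was higher in fat-rich tumors. It ranged from 0 to 158 CPM in fat-rich tumors, with a median of 1.47, and from 0 to 1.13 in fat-poor tumors, with a median of 0.0529. Of the fat-rich tumors 26 of 47 exceeded every fat-poor tumor, but 5 of 47 had no count, and 28 had at least 10 counts against 1 fat-poor tumor. ADIPOQ was too low for the main filter, as were other fat cell genes. A looser filter of at least 10 counts in at least 20 libraries kept 16205 genes, of which 389 (2.4%) were called higher in fat-rich tumors at an adjusted p under 0.05. Of 11 listed genes called under it, however, 5 (ADIPOQ, CIDEC, RBP7, PCK1 and TRARG1) reached it only through the fat-rich libraries. These 5 were therefore taken from a fit with no filter beyond 10 counts in all, which each of them also passed in the fat-poor tumors alone, with 63 to 120 counts there. Without the filter 332 of 24200 genes (1.37%) were called higher and 121 (0.5%) lower, and the log2 fold change of ADIPOQ was 4.02 ± 0.55 (SE; limma, adjusted p = 1.79e-06). Each of the other listed genes overlapped between the groups too.

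Among the 8 adipokines, proteins that fat tissue secretes, 1 of the 4 that passed the main filter was called higher and none lower, and of the other 4, RETN was called higher under the looser filter and ADIPOQ without a filter. In the main fit 236 of 13421 genes (1.76%) were called higher and 100 (0.745%) lower. CFD (chr20:58265041-58267518), which encodes the complement protease adipsin, was the gene from the main fit. It had a median of 12.8 CPM in fat-rich tumors (0 to 248) and 0.817 in fat-poor tumors (0.0506 to 15.2), and 22 fat-rich tumors exceeded every fat-poor one (log2 fold change 2.63 ± 0.63, SE, limma, adjusted p = 0.0127). RETN, which encodes resistin, had a median of 0.806 CPM in fat-rich tumors (0 to 11.7) and 0.0952 in fat-poor tumors (0 to 1.26), with a log2 fold change of 2.15 (looser filter, limma, adjusted p = 0.000832). LEP, the gene of the satiety hormone leptin, did not pass under the looser filter (log2 fold change 0.72, limma, adjusted p = 0.445). Its medians were 0.606 and 0.176 CPM and its ranges 0 to 6.51 and 0 to 3.14. RARRES2, which encodes chemerin, had medians of 12.6 and 2.15 CPM and did not pass either (log2 fold change 1.52, limma, adjusted p = 0.116).

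Genes of triglyceride synthesis and the lipid droplet held 4 called genes in the main fit. Of 15 listed, 11 passed the filter, and 4 of those were called higher and 0 lower, with a median log2 fold change of 0.45 against -0.005 over all genes tested. PLIN4 (chr20:55591145-55604603), a perilipin that coats nascent droplets, had a median of 4.95 CPM in fat-rich tumors (0 to 167) and 0.766 in fat-poor tumors (0 to 16.5), and 13 fat-rich tumors lay above the fat-poor range (log2 fold change 2.99 ± 0.66, SE, limma, adjusted p = 0.00791). GPD1, which makes glycerol 3-phosphate for triglyceride, had medians of 3.10 and 0.990 CPM (2.01, adjusted p = 0.00992). DGAT2, which adds the last fatty acid to triglyceride, had medians of 11.4 and 3.87 CPM (1.68, adjusted p = 0.0175). GPAM, which starts glycerolipid synthesis, had medians of 50.5 and 33.8 CPM (0.65, adjusted p = 0.0328). CIDEC, which fuses lipid droplets in fat cells, was called without a filter: its medians were 0.769 and 0.0957 CPM, its highest values 64.5 and 1.28, and its log2 fold change 2.74 ± 0.49 (SE, limma, adjusted p = 0.000477). The droplet coat gene PLIN2, which many cells express, had medians of 73.6 and 57.1 CPM and did not pass (0.33, adjusted p = 0.344).

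Fatty acid uptake and handling genes were not called in the main fit, with 0 of 7 higher, 0 lower and a median log2 fold change of 0.15. LPL, the lipase that frees fatty acids from blood lipoproteins, had medians of 104 CPM in fat-rich and 74.1 in fat-poor tumors (0.59, limma, adjusted p = 0.193). CD36, a fatty acid receptor of fat cells, endothelium and macrophages, had medians of 88.4 and 54.8 CPM (0.76, adjusted p = 0.0946), and 14 fat-rich tumors exceeded the highest fat-poor value of 136 CPM. RBP7, a retinol carrier, was called without a filter: 24 of 47 fat-rich tumors exceeded every fat-poor tumor (medians 1.07 and 0.111 CPM, 2.14, limma, adjusted p = 0.00103). None of the 5 lipolysis genes tested was called, although all 5 log2 fold changes were positive, from 0.11 to 0.81. LIPE, hormone-sensitive lipase, had medians of 6.99 and 4.89 CPM (0.45, limma, adjusted p = 0.0895).

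Synthesis of fatty acids from sugar held no called gene in the main fit. Of 7 fatty acid synthesis genes tested, 0 were called and the median log2 fold change was -0.11. SREBF1, a master regulator of lipid synthesis, had medians of 46.8 CPM in fat-rich and 64.5 in fat-poor tumors (-0.47, limma, adjusted p = 0.102). ME1, which supplies NADPH for synthesis, had medians of 74.5 and 52.8 CPM (0.48, adjusted p = 0.151). PCK1, a member of this list that fat cells use to make the glycerol backbone of triglyceride, was called without a filter. Its median was 0.562 CPM in fat-rich tumors (0 to 160) and 0 in fat-poor tumors (0 to 0.769), and 23 fat-rich tumors lay above the fat-poor range (2.87 ± 0.57, SE, limma, adjusted p = 0.0021).

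Of 10 adipogenic regulators and insulin-signalling genes tested, 1 was called higher and 0 lower, with a median log2 fold change of 0.43. EBF1, a transcription factor of fat and B cell precursors, had medians of 55.4 and 39.3 CPM (0.76, limma, adjusted p = 0.0288). PPARG, the regulator that fat cell formation requires, had medians of 11.8 and 6.77 CPM and did not pass (0.54 ± 0.22, SE, limma, adjusted p = 0.157). CEBPD, which acts early in fat cell formation, had medians of 4.51 and 1.92 CPM (1.00, adjusted p = 0.0900). Without a filter TRARG1, which aids glucose transporter traffic in fat cells, was called (medians 0.890 and 0.0529 CPM, 2.98, adjusted p = 0.000108), and 29 fat-rich tumors exceeded every fat-poor tumor. KLF15, which acts late in fat cell formation, was called under the looser filter (medians 1.18 and 0.671 CPM, 1.41, limma, adjusted p = 0.0136).

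The remaining lipid lists held no called gene. Neither of the thermogenic fat genes that passed the filter was called (DIO2, which activates thyroid hormone, 0.65, adjusted p = 0.486; COX7A1, a mitochondrial subunit, 0.27, limma, adjusted p = 0.493). Of 11 fatty acid oxidation genes 0 were called, with a median log2 fold change of 0.22. The smallest p values were those of ACADL (0.49, limma, adjusted p = 0.143) and HADH (0.22, adjusted p = 0.192), dehydrogenases of that pathway. Of 8 cholesterol genes 0 were called, with a median of -0.21. SREBF2, their regulator, had a log2 fold change of -0.32 (limma, adjusted p = 0.164).

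**Figure D2:**
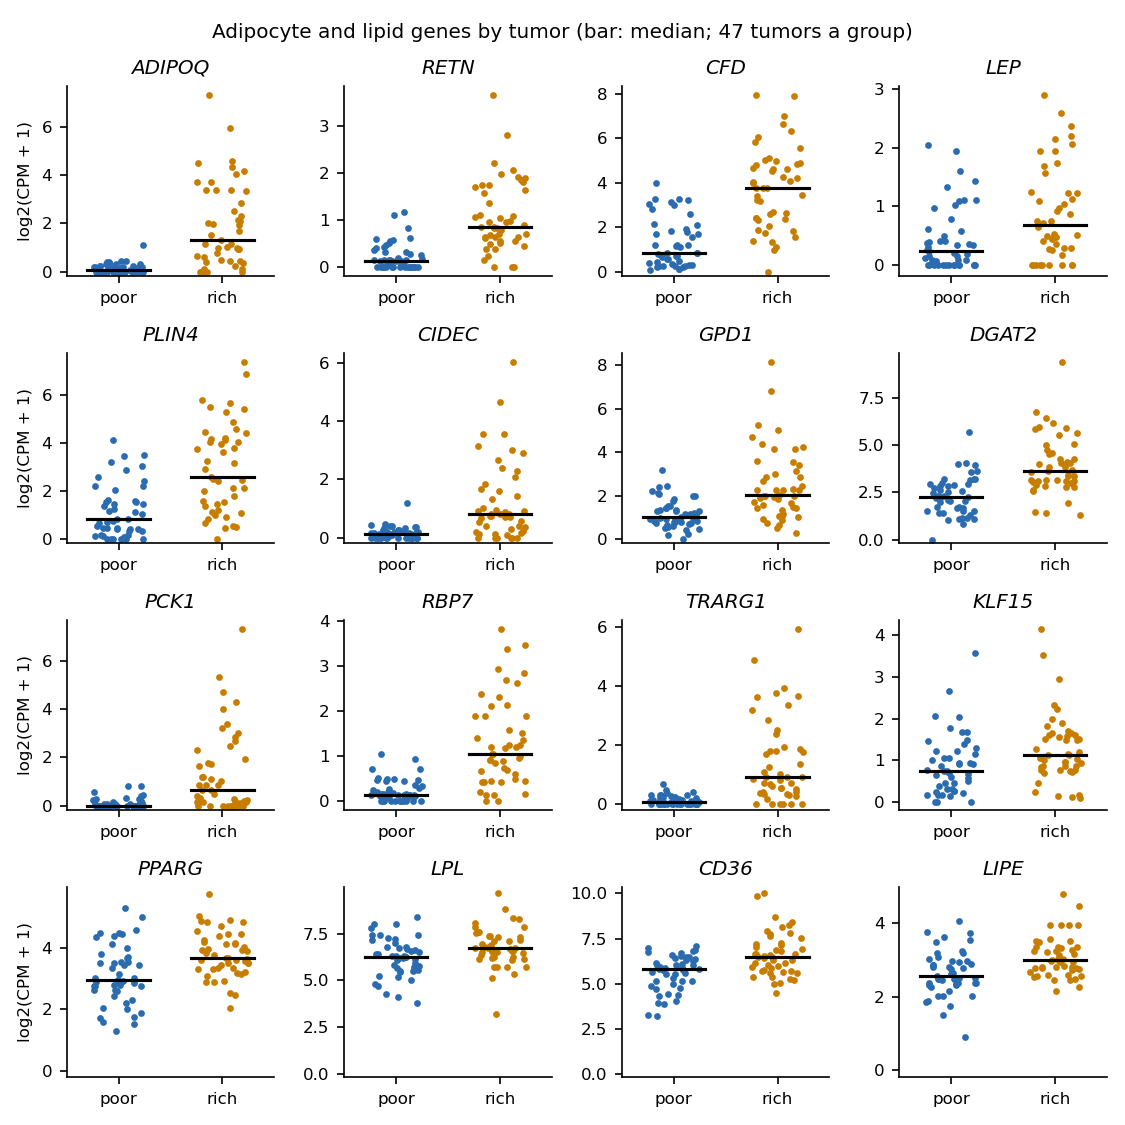
Fat cell and lipid genes as log2(CPM + 1) in each fat-poor (blue) and fat-rich (orange) tumor, with a bar at the median of 47 tumors. ADIPOQ, PCK1, CIDEC and TRARG1 are near 0 in the fat-poor tumors, while PPARG, LPL, CD36 and LIPE are found in both groups with wide overlap.

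The fat signal was uneven among fat-rich tumors. PLIN1 exceeded 10 CPM in 9 of them, 5 from COTC022 and 4 from COTC021, and 7 of these 9 were GS-1-high. In the tumor with the highest PLIN1, at 120 CPM, ADIPOQ was at 158 CPM, CIDEC at 64.5 and PLIN4 at 167, and in the tumor with the next highest, at 28.5 CPM, they were at 60.2, 7.05 and 54.4. Without these 9 tumors, 38 fat-rich tumors against 47, 135 genes were called higher (1.01%) and 42 lower. ADIPOQ (3.34, no filter, limma, adjusted p = 5.09e-07), PLIN4 (2.63, adjusted p = 0.0147) and CFD (2.56, adjusted p = 0.0219) were still called, and GPAM (0.53, adjusted p = 0.117), EBF1 (0.73, adjusted p = 0.0745) and MRC1 (0.97, adjusted p = 0.0881) no longer were.

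Across all genes, 56 were higher by more than 3-fold with an adjusted p under 0.05 (0.417% of those tested) and 3 were lower (0.0224%); these are called DEGs here. Among named DEGs with the same direction in each trial, the 15 with the largest positive fold changes held stromal, metabolic and muscle genes beside PLIN4 and CFD. C7 (chr4:69374269-69426946), a terminal complement component that fibroblasts of vessel walls express, led with a median of 10.1 CPM in fat-rich tumors (0 to 131) and 0.386 in fat-poor tumors (0 to 69.6). Its log2 fold change was 3.86 ± 0.76 (SE, limma, adjusted p = 0.00255), and 42 of 47 fat-rich tumors were above the fat-poor median. CHRDL1, a secreted inhibitor of bone morphogenetic proteins, had medians of 13.8 and 0.985 CPM (3.17, adjusted p = 0.0306). IGF1, insulin-like growth factor 1, had medians of 4.46 and 0.717 CPM (2.52, adjusted p = 0.000988), and 15 fat-rich tumors exceeded every fat-poor tumor.

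ABCA6 (chr9:11225320-11339865), a lipid transporter of the ABC family, had the most fat-rich tumors above the fat-poor range of these 15. It ranged from 2.58 to 105 CPM in fat-rich tumors, with a median of 12.1, and from 0.0812 to 10.8 in fat-poor tumors, with a median of 2.02. All 47 fat-rich tumors were above the fat-poor median, and 26 exceeded every fat-poor tumor (2.36 ± 0.38, SE, limma, adjusted p = 0.000149). PDK4, a kinase that turns cells from glucose to fatty acid oxidation, had medians of 28.6 and 4.06 CPM (2.42, adjusted p = 0.00911). MTARC1, a mitochondrial reductase known for its link to liver fat, had medians of 7.09 and 0.911 CPM (2.42, limma, adjusted p = 0.00365).

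Only 3 DEGs were lower in fat-rich tumors, and 2 are described here. STRA6, the cellular receptor for retinol-binding protein, had medians of 1.55 CPM in fat-rich tumors (0 to 118) and 6.20 in fat-poor tumors (0.122 to 127), and 8 of 47 fat-rich tumors were above the fat-poor median (-2.27 ± 0.64, SE, limma, adjusted p = 0.0343). NOTUM, which inactivates Wnt proteins, had medians of 11.1 and 22.5 CPM (-1.64, adjusted p = 0.0235). STRA6 was not called by edgeR (-1.31, adjusted p = 0.186) or DESeq2 (-1.30, adjusted p = 0.123), and NOTUM not by edgeR (-1.09, adjusted p = 0.0857).

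Skeletal muscle RNA was high in some tumors of every group. Of the 9 muscle genes tested 1 was called, NEB, which encodes nebulin of the thin filament (medians 5.80 and 1.91 CPM, highest values 7150 and 212 CPM, 2.79, limma, adjusted p = 0.0331). All 9 log2 fold changes were positive, from 1.68 to 3.04, with a median of 2.45. MYLPF, a myosin light chain of fast fibers, had medians of 3.18 and 1.70 CPM and did not pass (2.40, limma, adjusted p = 0.0793). The summed level of the 9 genes ranged from 7.31 to 85500 CPM in fat-rich tumors, with a median of 81.9, and from 3.61 to 3070 in fat-poor tumors, with a median of 38.5. In the 92 middle tumors it ranged from 5.42 to 12300 CPM, and their median of 82.8 was close to that of the fat-rich tumors.

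Beside NEB, other leading DEGs are known as genes of striated muscle. PDLIM3, a protein of the muscle Z-disc, had medians of 6.49 and 1.17 CPM and highest values of 1040 and 92.5 (3.25, limma, adjusted p = 0.0185). TMOD4, a tropomodulin of skeletal muscle, had medians of 2.50 and 0.557 CPM (2.93, adjusted p = 0.00195), and NRAP, a nebulin relative, 1.65 and 0.554 CPM (2.66, adjusted p = 0.0374). PLN, which encodes phospholamban, the inhibitor of the muscle calcium pump, had medians of 11.5 and 2.20 CPM (2.77, adjusted p = 0.0235), and SCN4B, a subunit of sodium channels of heart and skeletal muscle, 10.2 and 3.43 CPM (2.33, adjusted p = 0.00755). The paper lists PDK4, described above, in the same gene signature as NEB, PDLIM3, TMOD4 and NRAP. The highest values of PDK4 were 3030 CPM in fat-rich and 102 in fat-poor tumors.

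In the top 25% of the muscle sum over all 186 tumors were 14 of 47 fat-rich, 5 of 47 fat-poor and 28 of 92 middle tumors. Without them, 33 fat-rich against 42 fat-poor tumors, 51 genes were called higher (0.38%) and 16 lower, of which 21 and 0 were DEGs. Among the leading DEGs, C7 (3.51, limma, adjusted p = 0.0292), IGF1 (2.81, adjusted p = 0.000885), CFD (2.65, adjusted p = 0.0430), ABCA6 (2.49, adjusted p = 0.00128), MTARC1 (2.25, adjusted p = 0.0422) and TMOD4 (1.87, adjusted p = 0.0100) were still called. NEB (1.06, adjusted p = 0.290), NRAP (0.98, adjusted p = 0.407), PDLIM3 (1.86, limma, adjusted p = 0.0667), PLIN4 (1.98, adjusted p = 0.208), STRA6 (-1.98, adjusted p = 0.242) and NOTUM (-1.66, adjusted p = 0.118) were not. Nor were PLN (1.88, limma, adjusted p = 0.27), SCN4B (1.67, adjusted p = 0.101), CHRDL1 (3.29, adjusted p = 0.0667) and PDK4 (1.77, adjusted p = 0.0661). Most fat cell and lipid genes lost the call. Those of triglyceride synthesis went from 4 called to 0, with DGAT2 at 1.53 (limma, adjusted p = 0.0756), GPD1 at 1.57 (adjusted p = 0.128) and GPAM at 0.62 (adjusted p = 0.133). EBF1 was at 0.82 (limma, adjusted p = 0.120), KLF15 at 1.09 (looser filter, adjusted p = 0.233), CIDEC at 2.18 (no filter, adjusted p = 0.0760) and PCK1 at 2.72 (no filter, adjusted p = 0.0610). Still called beside CFD were ADIPOQ at 3.96 (no filter, limma, adjusted p = 0.000869), TRARG1 at 2.82 (no filter, adjusted p = 0.0146), RBP7 at 2.10 (no filter, adjusted p = 0.0333) and RETN at 2.53 (looser filter, adjusted p = 0.000692). Of the genes described below, TEK (0.93, limma, adjusted p = 0.148), MYH11 (1.99, adjusted p = 0.0543), MRC1 (1.24, adjusted p = 0.0549) and S100A9 (1.82, adjusted p = 0.121) lost the call. So did CPA3 (2.71, limma, adjusted p = 0.105), PPBP (2.02, adjusted p = 0.0523) and ALAS2 (1.39, adjusted p = 0.23), each under the looser filter. MS4A2 (2.41, looser filter, limma, adjusted p = 0.0238) and SLC2A1 (-1.24, adjusted p = 0.0124) kept it. The median of the muscle list was then 0.35. These tumors were left out by the sum of that same list, which holds NEB. The fall of its median and the lost call of NEB therefore carry no test. The part of muscle RNA in the other results was not tested beyond these values.

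**Figure D3:**
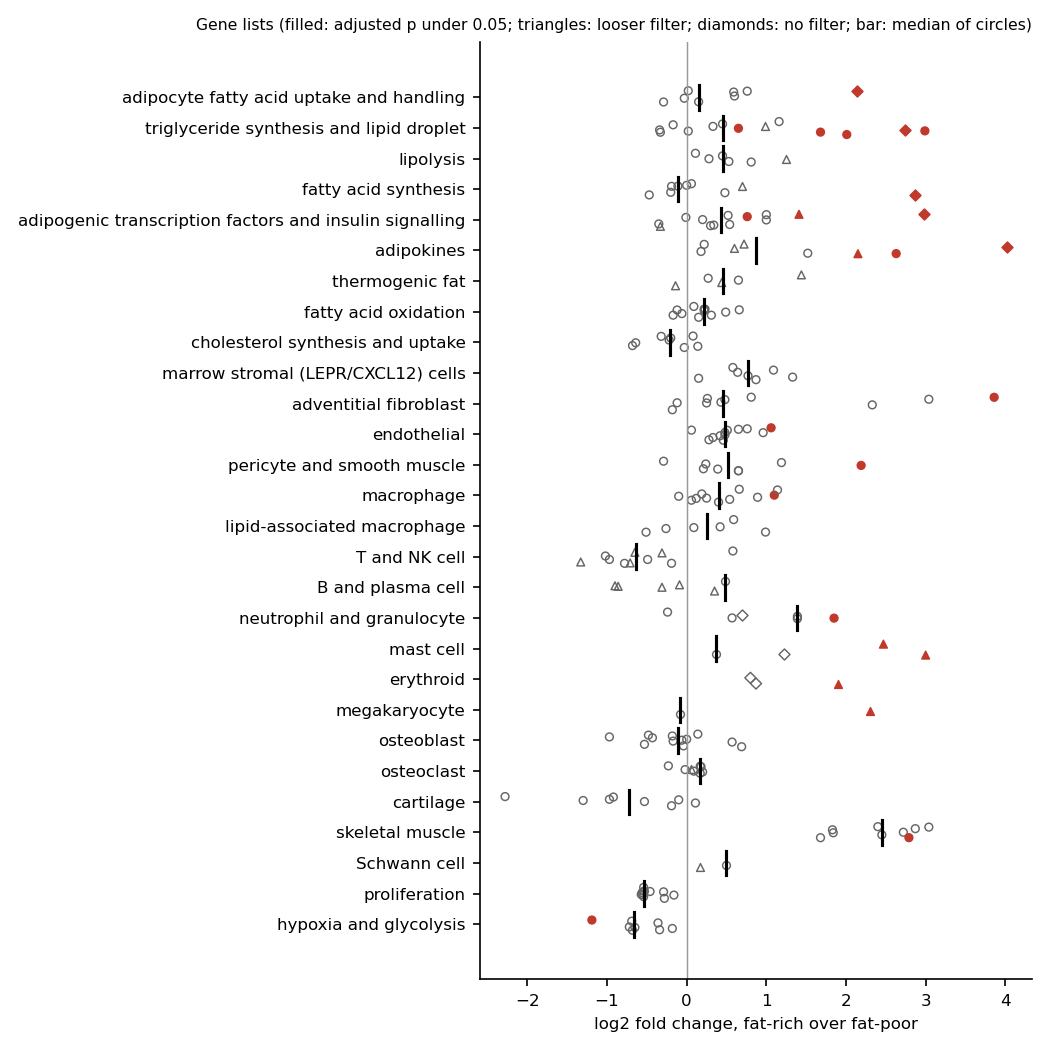
Log2 fold change (x axis, fat-rich over fat-poor) of each gene in the 28 lists (y axis); red filled marks passed an adjusted p of 0.05, triangles are genes tested under the looser filter, diamonds genes tested without a filter, and the black bar is the median of the circles. Muscle genes lie farthest right as a group, with a median of 2.45 and 1 called gene, and the 11 proliferation genes all lie left of 0 with none called.

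Few stromal and vessel genes were called, although most of their fold changes were positive. Of 10 adventitial fibroblast genes 1 was called (C7), with a list median of 0.45. PI16, which marks fibroblasts of the outer vessel wall, had medians of 12.7 and 0.809 CPM and missed the threshold (3.04 ± 0.95, SE, limma, adjusted p = 0.0586). None of the 7 marrow stromal genes was called, although all 7 were positive, with a median of 0.77. CXCL12, the chemokine that keeps blood stem cells in marrow, had medians of 22.4 and 6.52 CPM (1.33, adjusted p = 0.0790), and KITLG, the stem cell factor, 10.1 and 6.73 CPM (0.64, limma, adjusted p = 0.142). Of 12 endothelial genes 1 was called: TEK, the receptor of angiopoietins, with medians of 62.0 and 19.1 CPM (1.06, limma, adjusted p = 0.0203). All 12 were positive, with a median of 0.48, and PECAM1, an adhesion molecule of endothelium, had medians of 287 and 172 CPM (0.76, adjusted p = 0.0874). The summed endothelial level ranged from 148 to 2610 CPM in fat-rich tumors, with a median of 897, and from 126 to 2070 in fat-poor tumors, with a median of 542. Of 8 pericyte and smooth muscle genes 1 was called, the smooth muscle myosin MYH11 (medians 15.4 and 2.73 CPM, 2.19, limma, adjusted p = 0.0302), and RGS5 of pericytes was not (144 and 76.9 CPM, 0.65, adjusted p = 0.287). Without the cluster in the model, where 14.8% of all genes were called higher and 14.0% lower, 8 of the 12 endothelial, 5 of the 8 pericyte and 4 of the 7 marrow stromal genes were called higher.

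Endothelium and macrophages also express FABP4, so their markers stand beside the fat genes here. Of 11 macrophage genes 1 was called, the mannose receptor MRC1, with medians of 87.8 CPM in fat-rich and 24.6 in fat-poor tumors (1.10 ± 0.30, SE, limma, adjusted p = 0.0295). CD163, a hemoglobin scavenger receptor, had medians of 114 and 35.2 CPM and did not pass (0.89, adjusted p = 0.118). The list median was 0.40, and the macrophage sum ranged from 222 to 9230 CPM in fat-rich tumors (median 1590) and from 120 to 4850 in fat-poor tumors (median 785). Of 6 genes of lipid-associated macrophages 0 were called (TREM2, a lipid-sensing receptor, 0.99, limma, adjusted p = 0.138; LIPA, the lysosomal acid lipase, 0.42, adjusted p = 0.278). Without the cluster in the model 14.8% of all genes were called higher. In that fit 9 of the 11 macrophage genes were called higher, with a median of 1.33, and 4 of the 6 lipid-associated ones. Their part in FABP4 was not tested.

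Mast cell, granulocyte and platelet genes were called in a few members at low levels. CPA3, a protease of mast cell granules, had medians of 0.730 and 0 CPM and highest values of 91.9 and 8.82 CPM (looser filter, 3.00, limma, adjusted p = 0.0142). MS4A2, a chain of the mast cell IgE receptor, had medians of 1.37 and 0.103 CPM, and all 47 fat-rich tumors lay above the fat-poor median (looser filter, 2.47, limma, adjusted p = 0.00352). KIT, the growth factor receptor that mast cells share with other cells, was the one mast cell gene of the main fit and was not called (0.37, adjusted p = 0.470). HDC, the remaining gene of the mast cell list, was tested without a filter and was not called. Of 5 granulocyte genes 1 was called: S100A9, with medians of 7.25 and 1.62 CPM (1.85, limma, adjusted p = 0.0301), while its partner S100A8 had medians of 3.62 and 1.98 CPM (1.39, adjusted p = 0.0644). The platelet chemokine PPBP (medians 0.787 and 0.164 CPM, 2.30, limma, adjusted p = 0.00290) and the erythroid heme enzyme ALAS2 (0.367 and 0.101 CPM, 1.90, adjusted p = 0.0257) were called under the looser filter. Of 7 listed erythroid genes ALAS2 alone reached that filter, 2 more were not called without a filter, and 4 were untested. ITGA2B of megakaryocytes was at -0.08 (limma, adjusted p = 0.904). MBP, the Schwann cell gene that passed the filter, was not called (0.49, adjusted p = 0.263).

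Lymphocyte genes differed in sign between fits. Of 6 T and NK cell genes tested 0 were called, with a median log2 fold change of -0.64. CD3E, a subunit of the T cell receptor complex, had a higher median in fat-rich tumors (4.36 against 1.5 CPM), yet its log2 fold change with the cluster in the model was -1.02 (limma, adjusted p = 0.201), and without the cluster it was 1.46 (adjusted p = 0.00665). GZMB, a protease of killer cells, went from -0.97 (adjusted p = 0.339) to 1.29 without the cluster (limma, adjusted p = 0.0391). Without the cluster, where 14.8% of all genes were called higher, 5 of the 6 genes were called higher and 0 lower. With groups by PLIN1 alone, where 5.27% of all genes were called lower, 4 of the 6 were called lower and 0 higher, with a median of -0.94. CD3E was then at -1.1 (limma, adjusted p = 0.0284) and GZMB at -1.3 (adjusted p = 0.0185). With groups by FABP4 alone, where 3.06% of all genes were called higher, 1 of the 6 was called higher and 0 lower, with a median of 0.14. JCHAIN of plasma cells was not called (0.48, limma, adjusted p = 0.512).

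**Figure D4:**
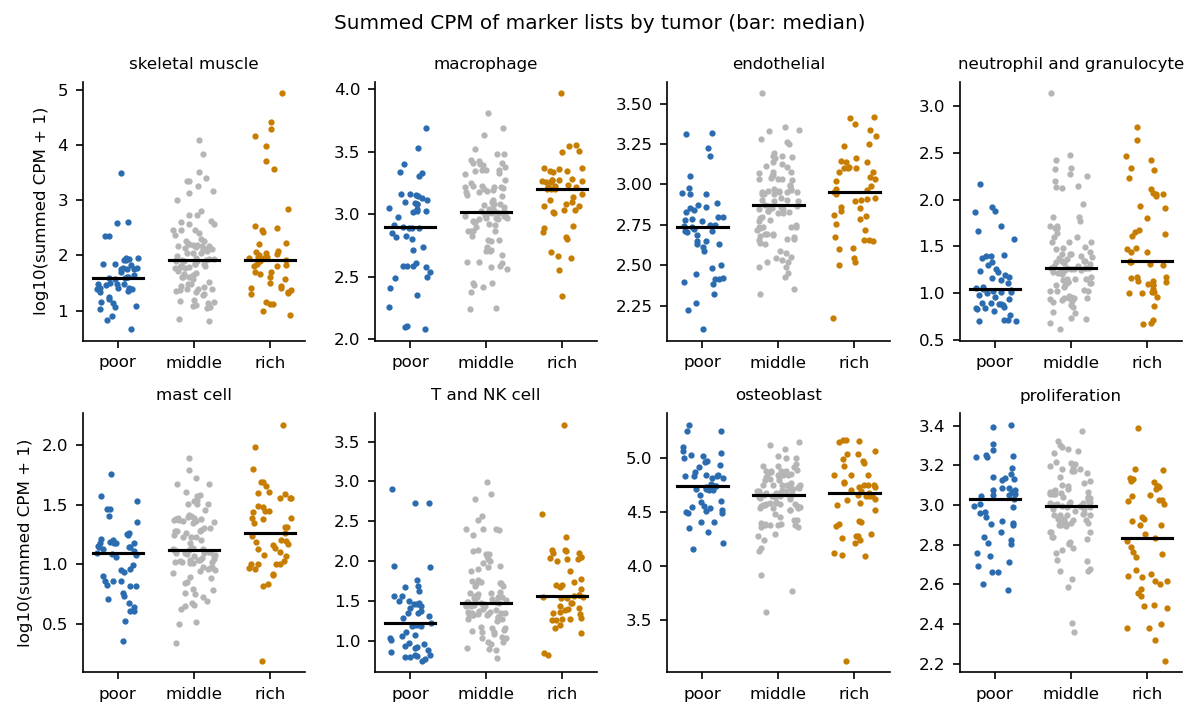
Log10 of the summed CPM (plus 1) of 8 marker lists in fat-poor (blue), middle (gray) and fat-rich (orange) tumors; each point is 1 tumor and the bar is the median. The muscle sum reaches 85500 CPM in fat-rich tumors, the macrophage medians are 785 and 1590 CPM in fat-poor and fat-rich tumors, and the proliferation medians are 1060 and 678 CPM.

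Hypoxia and cell division genes had negative fold changes, with few calls. Of 8 hypoxia and glycolysis genes 1 was called lower, SLC2A1 (chr15:532601-561334), the glucose transporter GLUT1. It had a median of 37.3 CPM in fat-rich tumors (11.5 to 172) and 91.5 in fat-poor tumors (16.5 to 410), and 4 of 47 fat-rich tumors were above the fat-poor median (-1.19 ± 0.22, SE, limma, adjusted p = 0.00111). All 8 were negative, with a median of -0.67, and VEGFA, the vessel growth factor, had medians of 43.2 and 71.3 CPM (-0.72, adjusted p = 0.0847). Of 11 proliferation genes 0 were called, all 11 were negative, and the median was -0.54. AURKB, a mitotic kinase, had medians of 15.4 and 27.8 CPM (-0.54, limma, adjusted p = 0.0977), and CCNA2, a cyclin of S phase, 28.6 and 42.6 CPM (-0.55, adjusted p = 0.114). Without the cluster, where 14.0% of all genes were called lower, 10 of the 11 proliferation and 5 of the 8 hypoxia genes were. The summed proliferation level ranged from 163 to 2450 CPM in fat-rich and from 370 to 2530 in fat-poor tumors.

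Bone and cartilage genes were not called in the main fit. Of 12 osteoblast genes 0 passed, with a median of -0.12. SP7, the osteoblast regulator osterix, had medians of 18.7 and 31.4 CPM (-0.53, limma, adjusted p = 0.408), and COL1A1, the main bone collagen chain, 17800 and 24500 CPM (-0.48, adjusted p = 0.482). Of 7 osteoclast genes 0 passed (CTSK, a collagen-cutting protease, 0.20, limma, adjusted p = 0.802; DCSTAMP, a fusion protein, 0.18, adjusted p = 0.896). Of 8 cartilage genes 0 passed, with a median of -0.72. COL2A1, the cartilage collagen, had medians of 3.19 and 32.3 CPM and highest values of 49200 and 15800 CPM (-2.28 ± 1.04, SE, limma, adjusted p = 0.213), and COL9A2 had medians of 17.6 and 70.0 CPM (-0.92, adjusted p = 0.338). Without the cluster, where 14.0% of all genes were called lower, 3 of the 12 osteoblast and 3 of the 8 cartilage genes were.

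Taking 1 rule gene at a time gave unlike lists. The top against the bottom 25% of FABP4 alone had 411 genes higher (3.06%) and 166 lower (1.24%), and those of PLIN1 alone 743 higher (5.54%) and 707 lower (5.27%), with 47 tumors at every end and many tumors shared. ADIPOQ had a log2 fold change of 3.84 by FABP4 (no filter, limma, adjusted p = 8.64e-06) and 3.13 by PLIN1 (adjusted p = 0.000167). PLIN4 was at 3.05 by FABP4 and 2.11 by PLIN1, and C7 at 3.78 and 2.57; all 4 values were called. Other genes were called by FABP4 and not by PLIN1. S100A9 was at 2.71 by FABP4 (limma, adjusted p = 0.000844) and 0.04 by PLIN1 (adjusted p = 0.963). Under the looser filter MS4A2 was at 3.14 (limma, adjusted p = 1.4e-05) and -0.19 (adjusted p = 0.818). The adipokine gene RETN, under the same filter, was at 2.57 (limma, adjusted p = 1.4e-05) and 0.56 (adjusted p = 0.299). PDLIM3 was at 3.51 (limma, adjusted p = 0.00696) and 0.13 (adjusted p = 0.918), CHRDL1 at 3.61 and 0.36, and CFD at 3.53 and 0.36. PDK4 was at 2.63 (limma, adjusted p = 0.000844) and 0.57 (adjusted p = 0.411). The median of the muscle list was 2.85 by FABP4 and -0.04 by PLIN1. The macrophage list held 5 called genes of 11 by FABP4 and 0 by PLIN1, the granulocyte list 4 of 5 and 0. The marrow stromal list held 1 of 7 by FABP4 and 4 of 7 by PLIN1. The T and NK cell list held 1 of 6 called higher by FABP4 and 4 of 6 called lower by PLIN1. The bottom 25% by PLIN1 covered 0 to 6 counts, so its tumors were ranked on few reads. The differences between these comparisons were not tested.

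**Figure D5:**
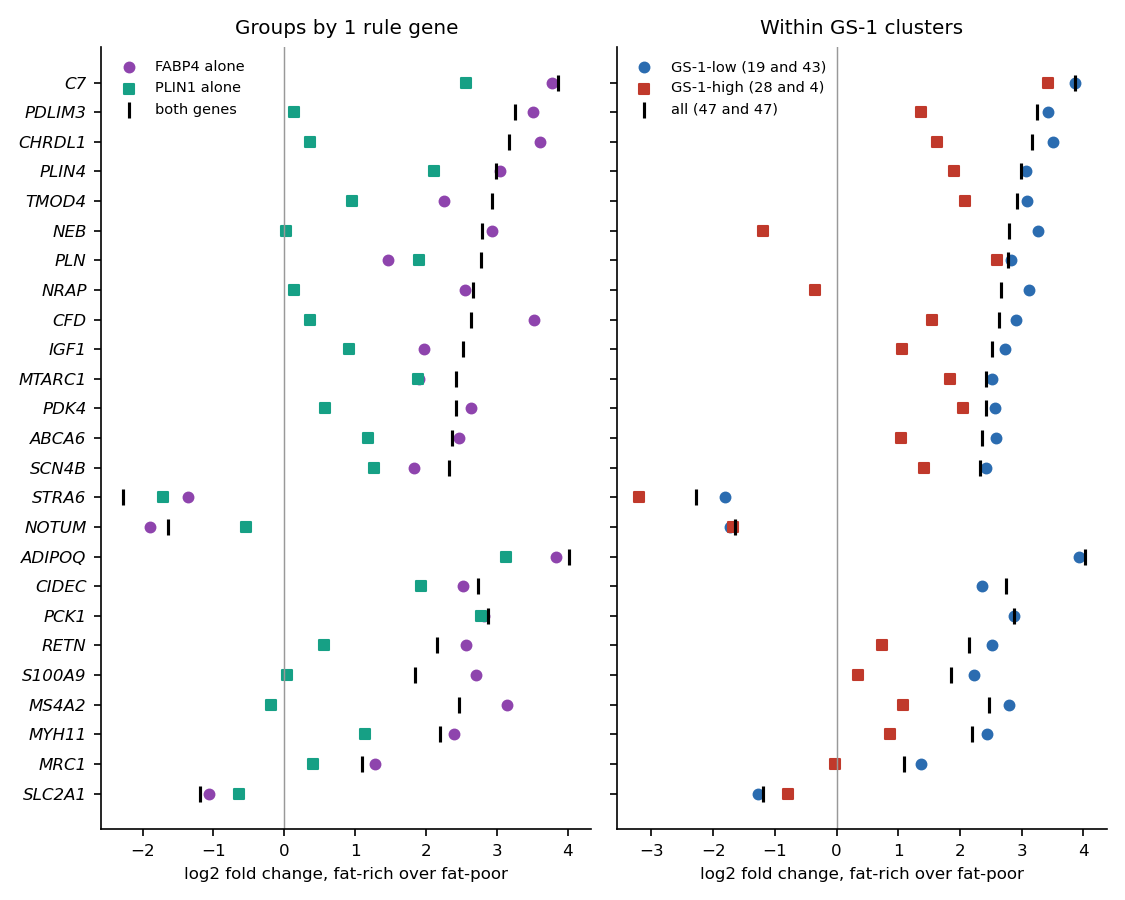
Log2 fold change (x axis) of named DEGs and 9 list genes (y axis). On the left, groups by FABP4 alone (circles) and PLIN1 alone (squares) against the combined score (bars); on the right, GS-1-low (circles) and GS-1-high (squares) tumors against all tumors (bars). NEB is at 2.93 by FABP4 and 0.03 by PLIN1, while ADIPOQ is at 3.84 and 3.13. No GS-1-high value is drawn for ADIPOQ, CIDEC and PCK1.

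Within the 62 GS-1-low tumors of both groups, 19 fat-rich and 43 fat-poor, 293 genes were called higher (2.18%) and 85 lower (0.633%), of which 80 and 2 were DEGs. C7 (3.87, limma, adjusted p = 0.00231), PLIN4 (3.07, adjusted p = 0.00226) and ABCA6 (2.59, adjusted p = 1.49e-06) were among them. Without the low-count filter 418 of 23293 genes were called higher in these tumors and 94 lower. ADIPOQ was among the higher genes of that fit (3.93, limma, adjusted p = 2.69e-08). The GS-1-high tumors were 28 fat-rich and 4 fat-poor, and 1 gene was called higher and 3 lower (1066 genes had an unadjusted p under 0.05). C7 was at 3.43 there (limma, adjusted p = 0.840), ABCA6 at 1.04 (adjusted p = 0.865) and NEB at -1.19 (adjusted p = 0.889). None of the DEGs named here passed the test of the difference between the clusters (limma, adjusted p of 0.306 for NEB and 0.999 for C7).

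The interaction test called 38 of 13421 genes (0.283%), 36 with a larger fold change in GS-1-low tumors, and the clusters were themselves made from GS-1 genes. GBP5, an interferon-induced GTPase, had medians of 1.39 CPM in 19 fat-rich and 0.983 in 43 fat-poor GS-1-low tumors. In GS-1-high tumors it had medians of 3.71 CPM in 28 fat-rich (0.774 to 56.3) and 55.7 in 4 fat-poor tumors (12.6 to 161). The difference of the log2 fold changes was 3.98 ± 0.64 (SE, limma, adjusted p = 0.000195). CD274, which encodes PD-L1, had medians of 1.71 and 0.990 CPM in GS-1-low tumors and 2.39 and 11.9 in GS-1-high tumors (2.60, adjusted p = 0.00269). These genes were chosen after their values were seen, and the GS-1-high side rests on 4 fat-poor tumors, whose immune genes were high.

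Within COTC021, 23 fat-rich against 24 fat-poor tumors, limma called 0 genes in the main fit (958 had an unadjusted p under 0.05), and within COTC022, 24 against 23, it called 188 higher (1.4%) and 129 lower (0.961%). Without the low-count filter 18 of 22420 genes (0.0803%) were called higher in COTC021, ADIPOQ among them (4.04, limma, adjusted p = 0.000361), and ADIPOQ was called in COTC022 as well (3.86, adjusted p = 0.0430). The interaction with trial called 0 genes by limma (643 with an unadjusted p under 0.05) and 1 by edgeR, so a difference between the trials was not shown. C7 had a log2 fold change of 3.88 in COTC021 and 3.76 in COTC022, PLIN4 of 3.02 and 2.72, and SLC2A1 of -0.92 and -1.47. Among the libraries with __ in their names, 13 against 15, and among the others, 34 against 32, limma called 0 genes each in the main fit (1488 and 1676 with an unadjusted p under 0.05). Without the low-count filter it called 2 of 22940 genes (0.00872%) higher among the others, with ADIPOQ at 3.99 (adjusted p = 0.000305), while ADIPOQ was at 3.96 among the libraries with __ (limma, adjusted p = 0.205). C7 was at 4.86 and 2.91 in these, NEB at 4.82 and 1.19, and SLC2A1 at -1.57 and -0.94.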

How the data were processed

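RNA from frozen primary tumors was made into stranded poly(A) libraries. The authors demultiplexed with bcl2fastq, trimmed with Cutadapt, aligned with STAR 2.7.0f to the GSD_1.0 dog genome and deposited RSEM 1.3.1 expected counts for 37952 genes, of which 3.07% of values were not whole and were rounded here. Of 198 columns, 186 named a labelled sample, and 12 were not used. Totals were 6587634 to 27420867 counts. The groups and gene lists were chosen with earlier results of these data known. GS-1 clusters were rebuilt by K-means (2 clusters, 2000 starts) on quantile-normalized log2(CPM + 2), with scikit-learn 1.9.0, as disease-free interval, overall survival and the study's own clusters were not analysed here. Genes were kept by edgeR's filterByExpr (minimum count 10, proportion 0.5 of the 186 libraries), giving 13421 tested without FABP4; PLIN1 was below this filter. Genes that reached the looser filter only through fat-rich libraries were tested without it; that choice was made after seeing the data. The main test was limma-voom 3.58.1 with TMM, trial and cluster as covariates, and Benjamini-Hochberg adjustment; called means an adjusted p under 0.05. The alternatives included edgeR 4.0.16, DESeq2 1.42.0, other filters, covariates, groups and subsets. Both limma and edgeR were tested on simulated data. Genes with symbols were named by rule: the 15 highest and up to 10 lowest DEGs, the listed genes with the smallest p, and ADIPOQ, PPARG, CIDEC, LPL, CD36 and LEP in every case. Coordinates are from RefSeq (UU_Cfam_GSD_1.0). PDE3B and PF4 of the lists were not analysed here. Permutation tests used 100000 resamples. A few of the genes this rule picks are not reported here.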

Additional observations from a re-analysis of the deposited data

Results flagged for a closer look

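The effect of the fat group differed between the GS-1 clusters for 38 genes by the interaction term (limma, adjusted p under 0.05), and for 42 genes by edgeR. The smallest p was that of GBP5, at 3.98 on the log2 scale (limma, adjusted p = 0.000195; edgeR, 0.0166), followed by CD5L, which macrophages secrete, at 6.11 (limma, adjusted p = 0.00269; edgeR, 0.796). The comparison in GS-1-high tumors has 4 fat-poor tumors, in which CD5L had a median of 110 CPM (39.8 to 350) against 8.01 in the 28 fat-rich tumors. The clusters were made from 27 GS-1 genes, several of which (SLA, VWA5A, IL31RA, NCF1 and DLA-DQA1) are among the 38.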

How the results depend on the processing

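Against 236 genes higher and 100 lower, with 56 and 3 DEGs, edgeR called 454 and 175 (138 and 12 DEGs), DESeq2 515 and 248 (93 and 12), the looser filter 389 and 111 (137 and 11), no filter 130 and 12 DEGs, the model without the cluster 1990 and 1880 (178 and 44), the continuous score in 186 tumors 1007 and 818, groups by PLIN1 alone 743 and 707 (28 and 12), groups by FABP4 alone 411 and 166 (87 and 2), and the top and bottom 62 tumors 464 higher and 1 DEG lower. With the main filter COTC021 and both library-name groups gave 0 in every count, GS-1-high tumors 1 and 3 with 0 DEGs higher, and COTC022 6 DEGs lower. Of alternatives chosen after seeing the data, the GS-1 score as covariate gave 415 and 227, clusters from TMM values 8 DEGs lower, leaving out high-muscle tumors 51 and 16 (21 and 0), and leaving out PLIN1 over 10 CPM 135 and 42. RLE size factors and the library-name covariate kept each count within 1.5 times; the causes were not tested. The top and bottom 62 turned the trial odds ratio to 1.14 (Fisher's exact test, p = 0.858) and gave a depth difference of -0.19. DESeq2 gave NEB, NRAP, PDK4 and MYH11 no adjusted p.

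Signs turned for 23 of the 79 named genes, on the log2 scale as follows. In GS-1-high tumors NEB was at -1.19, NRAP at -0.35, MRC1 at -0.02, RARRES2 at -0.06, DIO2 at -0.49, CD163 at -0.47, TREM2 at -0.04, LIPA at -0.05, JCHAIN at -0.94, ITGA2B at 0.13, SP7 at 1.09 and COL2A1 at 0.27. By groups by PLIN1 alone MS4A2 was at -0.19 (looser filter), RARRES2 at -0.38, SREBF2 at 0.10, ITGA2B at 0.08 and SP7 at 0.15. By groups by FABP4 alone GZMB was at 0.15, KIT at -0.05, ITGA2B at 0.09 and COL1A1 at 0.36. Without the cluster CD3E was at 1.46, GZMB at 1.29 and COX7A1 at -0.08. In COTC022 CD3E was at 0.36, GZMB at 1.05 and KIT at -0.63, and in COTC021 JCHAIN at -0.11, COL1A1 at 0.07 and DCSTAMP at -0.06. In libraries with __ in their names CD3E was at 1.04, GZMB at 1.63, ME1 at -0.29 and CTSK at -0.01, in the others ITGA2B at 0.03, and in GS-1-low tumors CD3E at 0.41 and GZMB at 0.55. By edgeR ITGA2B was at 0.12, DCSTAMP at -0.07, COL2A1 at 1.63 and COL9A2 at 0.15, and by DESeq2 ITGA2B at 0.13 and DCSTAMP at -0.06. With TMM clusters ITGA2B was at 0.03, CTSK at -0.06 and DCSTAMP at -0.32, with the GS-1 score DCSTAMP at -0.01, with the top and bottom 62 ITGA2B at 0.07, and without high-muscle tumors ITGA2B at 0.22 and CTSK at -0.05. The GS-1 odds ratio was 9.4 with TMM clusters and 11.8 with the top and bottom 62. Depth limits the genes below the main filter, most of which had under 10 counts in nearly all fat-poor tumors.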
